A study of Mus musculus with 22 samples.

Results

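Epithelial-mesenchymal transition (EMT) is the process by which epithelial cells lose their junctions and take on features of mesenchymal cells. Its main drivers are transcription factors of the Snail, Twist and Zeb families, which bind E-box sequences and repress epithelial genes such as the one for E-cadherin. DNA methylation at CpG-rich promoters is a mark commonly found at silent genes. The 10 genes described here are 6 such factors (Snai1, Snai2, Twist1, Twist2, Zeb1 and Zeb2) and 4 genes of mesenchymal cells and stroma (Cdh2, which encodes N-cadherin, Vim, which encodes the intermediate filament vimentin, Fn1, which encodes the matrix protein fibronectin, and Fap, which encodes fibroblast activation protein). Their members were all CpG positions covered in every sample that lay in the gene or within 2 kb of one of its RefSeq transcription start sites (TSSs). They came to 835 of 1140639 positions, of which 681 lay within 2 kb of a TSS and 154 further inside the gene. Since the strands were kept apart, the 835 positions belonged to 647 CpGs.

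DNA methylation was measured by enhanced reduced representation bisulfite sequencing (ERRBS), a method that reads CpG-rich fragments of the genome. Per the paper, the samples were bulk mammary tumors of 10 female MMTV-PyMT mice and normal mammary glands of 12 female FVB mice of the same ages without the transgene. The PyMT mice were heterozygous for the polyoma middle T antigen on the FVB background, and the MMTV promoter drives it in mammary epithelium. The PyMT groups were hyperplasia (week 6, n = 2), adenoma/mammary intraepithelial neoplasia (adenoma/MIN, week 8, n = 3), early carcinoma (week 10, n = 3) and late carcinoma with lung metastasis (week 12, n = 2), and each week had 3 FVB controls. The authors had left out 2 PyMT samples as outliers. Each sample was one mouse, and the stage went with the age, so stage and age cannot be told apart.

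A sample held 1314077 to 1435757 positions at a mean coverage of 60.2 to 79.2 reads, and the 835 positions had a mean coverage of 74.9 reads. One library stood apart. Replicate 1 of adenoma/MIN had a mean methylation of 12.9% over 472 promoters of the X chromosome, where the other 9 PyMT samples had 33.5% to 36.3% and the FVB samples 30.9% to 33.0%. None of the 10 genes lies on the X chromosome. Without this library 22 CpG clusters of the 10 genes were still called higher and 8 lower over the 4 weeks, where a cluster is a run of at least 3 measured positions with gaps of at most 100 bp. The promoter calls without it were 8 in place of 9.

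The stretches that carried the differences are shown from RefSeq (GRCm38.p6, the mm10 assembly), on the strand of the gene, 5′ to 3′, with the measured CpGs in capitals. They are the part of Snai1 intron 1 in which methylation began to differ, and 5 of the 6 clusters that were called with a difference of at least 10 percentage points, each with 10 bases on either side. The sixth, in Zeb1, is given by its position only.
Snai1 intron 1, chr2:167538372-167538586 (+): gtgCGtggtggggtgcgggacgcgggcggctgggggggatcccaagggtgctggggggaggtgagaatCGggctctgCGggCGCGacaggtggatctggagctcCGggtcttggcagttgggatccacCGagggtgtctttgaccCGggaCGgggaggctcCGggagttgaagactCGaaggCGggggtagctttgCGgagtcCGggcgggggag
Snai1 exon 2, coding, chr2:167538790-167538922 (+): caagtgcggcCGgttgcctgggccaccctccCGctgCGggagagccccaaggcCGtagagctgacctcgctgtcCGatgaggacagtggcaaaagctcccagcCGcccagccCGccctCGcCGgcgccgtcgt
Twist2 upstream, chr1:91799728-91799845 (+): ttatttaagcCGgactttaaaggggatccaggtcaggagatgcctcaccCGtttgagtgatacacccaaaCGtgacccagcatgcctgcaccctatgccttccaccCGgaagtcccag
Twist2 intron 1, chr1:91804672-91804822 (+): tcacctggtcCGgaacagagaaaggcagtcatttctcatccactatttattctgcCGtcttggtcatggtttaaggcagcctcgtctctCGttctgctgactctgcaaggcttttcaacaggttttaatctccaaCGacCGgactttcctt
Zeb2 intron 6, chr2:45001880-45001960 (−): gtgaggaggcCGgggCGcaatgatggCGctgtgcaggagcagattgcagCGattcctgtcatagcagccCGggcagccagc
Fn1 exon 6, coding, chr1:71645537-71645701 (−): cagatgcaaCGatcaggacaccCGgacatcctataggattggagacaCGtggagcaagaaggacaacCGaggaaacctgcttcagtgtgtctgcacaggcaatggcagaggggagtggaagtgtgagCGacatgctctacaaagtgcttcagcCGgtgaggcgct

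The promoters of the 10 genes were compared first, since methylation there is the kind most often tied to silent genes. Promoter methylation (the mean percent over all measured positions within 2 kb of a TSS) was higher in PyMT than in FVB tissue over the 4 weeks for 9 of the 10 genes and lower for none, also at an unadjusted p under 0.05 (limma on all 16407 promoters, called at an adjusted p under 0.05). Of all promoters 17.0% were called higher and 17.0% lower. The median difference over the 10 genes was 0.605 percentage points, against -0.00815 over all promoters. The size of the difference set 3 genes apart. Fap differed by 12.3 points, Snai1 by 6.96 and Twist2 by 1.75, while the other 7 promoters differed by 0.196 to 0.823 points. Those 7 were nearly free of methylation in every sample, with FVB means of 0.162% to 0.934% and no single sample above 2.88%. Among the 10212 promoters with an FVB mean under 2%, 13.5% were called higher and 6.74% lower, and their median difference was -0.00289. In the same libraries the mitochondrial genome, which is largely unmethylated, read as 0.179% to 0.276% methylated in PyMT and 0.172% to 0.242% in FVB samples. The part of incomplete bisulfite conversion in these small differences was not tested. In bulk tissue, methylation gained within a cell type and a change in the mix of cell types cannot be told apart.

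**Figure D1:**
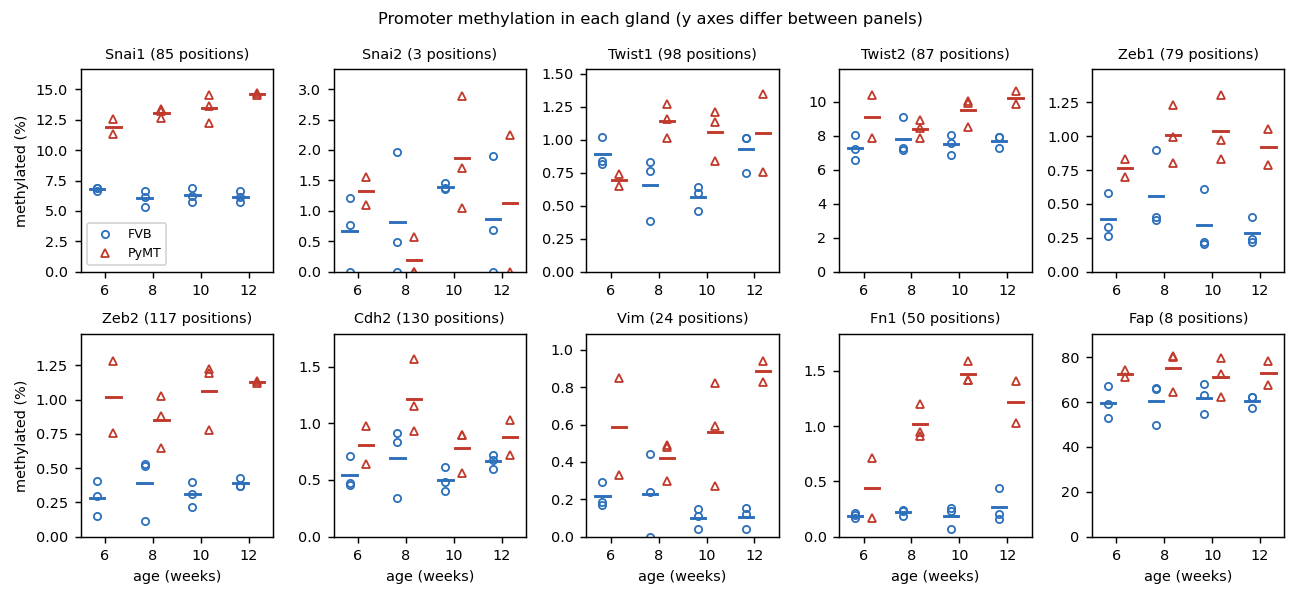
Promoter methylation (percent methylated, mean over the measured positions within 2 kb of a TSS) of each of the 10 genes by age in weeks, with blue circles for FVB, red triangles for PyMT and bars for the mean of each strain and week. The y axes differ: Snai1 and Fap reach 14.7% and 80.5%, while Vim stays below 1% in every sample, and all PyMT samples lie above all FVB samples for Snai1 and Zeb2.

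Snai1 encodes Snail, a zinc-finger repressor of E-cadherin (chr2:167538195-167542814, forward strand). Its promoter was at 11.3%, 13.3% and 14.7% in PyMT samples (lowest, median and highest of 10) and at 5.30%, 6.44% and 6.91% in FVB samples (of 12). All PyMT samples lay above all FVB samples, which held for 4.51% of all promoters, while 5.35% had all PyMT samples below all FVB samples. The difference was 6.96 points (SE 0.301, limma adjusted p = 2.58e-11), and the exact permutation test within weeks gave p = 2.5e-05 (two-sided), the smallest its 40000 arrangements allow. It was 5.14 points in hyperplasia (adjusted p = 0.000104) and 8.45 points in late carcinoma (adjusted p = 9.24e-08). The rise from premalignant (weeks 6 and 8) to malignant (weeks 10 and 12) PyMT samples was 1.54 points and did not pass the test (adjusted p = 0.0531).

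The difference in Snai1 began abruptly inside intron 1. Across the 60 positions from 185 bp before to 322 bp after the TSS, methylation averaged 0.763% ± 0.299 in PyMT (SD, n = 10) and 0.528% ± 0.234 in FVB samples (n = 12), and none of the 60 was called at any stage. From 327 bp, which is base 151 of the intron 1 stretch shown, to 717 bp, the 20 positions averaged 53.8% ± 4.51 in PyMT and 24.3% ± 2.08 in FVB samples. The PyMT samples spanned 46.2% to 60.5% and the FVB samples 20.5% to 27.4%, with no overlap. The limits of these stretches were set after the values were seen, so they are a description. Each of the 20 positions was called hypermethylated in PyMT at 1 or more stages and 12 of them at all 4 stages, by a test explained below. Of all positions 1.05% were called hypermethylated at all 4 stages. Because the limits followed the values, these counts and the lack of calls among the 60 describe the stretches and do not test them.

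**Figure D2:**
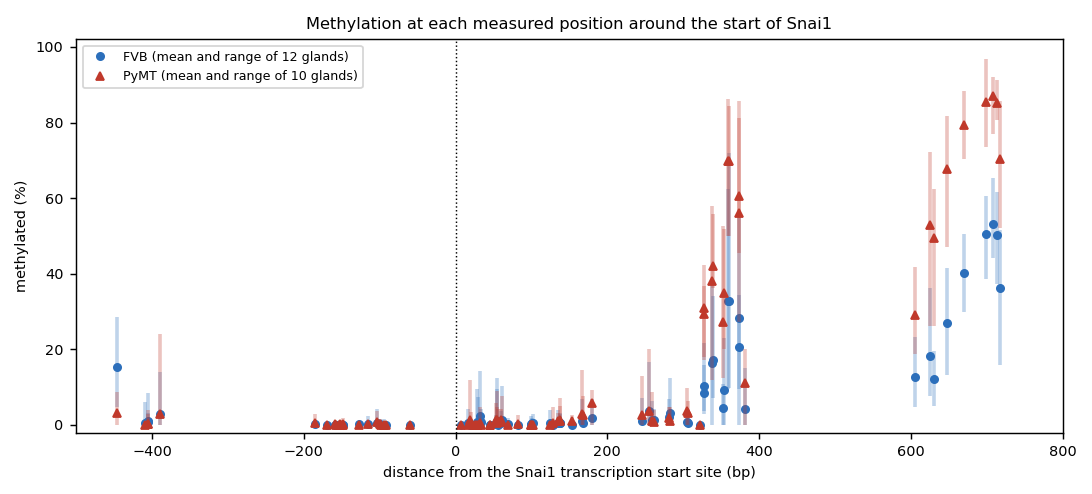
Percent methylated at each measured position around the Snai1 TSS (dotted line), by distance from it in bp, with blue circles and red triangles for the FVB and PyMT means and vertical bars for the range over the 12 and 10 samples. From -185 to 322 bp every mean of both strains lies at or below 5.74%, and from 327 to 717 bp every PyMT mean lies above its FVB mean, by 6.83 to 40.8 points. At -446 bp the FVB mean of 15.4% lies above the PyMT mean of 3.27%.

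The coding cluster in exon 2 of Snai1 held the largest increase among the 46 clusters of the 10 genes. It was at 69.5% and 58.3% in the hyperplasia samples, at 63.6%, 64.4% and 68.2% in adenoma/MIN, at 65.3%, 65.3% and 74.2% in early carcinoma and at 70.2% and 74.7% in late carcinoma. The FVB samples had 24.8% to 43.3% at week 6, and the 9 later ones had 27.4% to 37.2%. Thus all PyMT samples lay above all FVB samples already at hyperplasia. The difference was 34.1 points (SE 2.44, limma adjusted p = 7.39e-09). Among its 9 positions the smallest difference was 16.4 points, at the most upstream one. The CpG cluster at the end of the gene, in the last coding bases and the 3′ untranslated region of exon 3, was higher by 8.14 points (71.4% ± 2.02 against 63.3% ± 1.27, adjusted p = 9.44e-07), again with no overlap. There the strands of the same CpG differed within a strain, 93.5% on the forward and 26.2% on the reverse strand of PyMT samples at its first CpG, and a sequence difference between FVB and the reference as the source of this was not tested. A small cluster upstream, centred at -418 bp from the TSS, was lower, at 1.37% ± 1.91 in PyMT and 4.16% ± 1.86 in FVB samples (adjusted p = 0.006). Most of this came from the position at -446 bp (3.27% against 15.4%). Those at -409, -406, -405 and -390 bp had 0%, 0.385%, 0.299% and 2.88% against 0.5%, 0.947%, 0.918% and 2.99%.

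Snai2, which encodes the related repressor Slug, had only 3 measured positions, all within 2 kb of its TSS, and no cluster. PyMT samples ranged from 0% to 2.88% and FVB samples from 0% to 1.97%, and the groups overlapped at every week. The difference of 0.196 points (SE 0.328) did not pass the test (adjusted p = 0.728). With so few positions, most of this gene was not measured.

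Twist1 and Twist2 encode related basic helix-loop-helix factors. Twist1 (chr12:33957671-33959831) was nearly unmethylated at 98 positions, none of which was called at any stage. Its promoter was at 0.649%, 1.07% and 1.34% in PyMT samples (lowest, median and highest) and at 0.387%, 0.790% and 1.02% in FVB samples. The difference of 0.227 points passed narrowly (adjusted p = 0.0451) and was lost when the coverage minimum was raised to 20 reads (0.146 points, adjusted p = 0.223) or the window was narrowed to 500 bp (0.0220 points, adjusted p = 0.928). In its first exon, 68 positions averaged 0.394% and 0.377%. A cluster at -1588 bp was at 2.20% in PyMT and 1.61% in FVB samples (adjusted p = 0.0349), a call that 10 of the 22 fits without 1 sample lost. One at -688 bp was at 3.44% and 1.73%, a difference of 1.64 points (adjusted p = 0.149). It was 0.862 points without replicate 1 of late carcinoma (adjusted p = 0.455) and 2.42 points without replicate 3 (adjusted p = 0.0272).

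Twist2 (chr1:91801461-91848034, forward strand) moved in both directions along its length. Of its 9 clusters 5 were called higher and 1 lower. The lower one lay upstream, at -1675 bp from the TSS, with a mean of 123 reads per position. It was at 4.43% and 7.58% in hyperplasia, at 5.95%, 7.78% and 8.21% in adenoma/MIN, at 6.98%, 5.89% and 12.7% in early carcinoma and at 11.1% and 13.5% in late carcinoma. The FVB samples had 15.9%, 25.1% and 32.5% (lowest, median and highest), and no PyMT sample reached the lowest of them. The difference was -16.1 points (SE 1.62, adjusted p = 3.42e-07).

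Of the 8 other Twist2 clusters 5 were higher, and 3 did not pass the test, with differences of 0.792 to 4.89 points. The cluster over the TSS and first exon was at 2.10% and 1.68% in hyperplasia, at 1.67%, 1.69% and 1.89% in adenoma/MIN, at 2.86%, 2.82% and 3.29% in early carcinoma and at 2.83% and 5.15% in late carcinoma, while FVB samples lay between 0.220% and 1.003%. All PyMT samples lay above all FVB samples, and the malignant ones above the premalignant ones. It was higher by 2.11 points over the 4 weeks (SE 0.205, adjusted p = 2.34e-07). In intron 1, 3286 bp from the TSS, the cluster shown above was at 59.6% ± 6.75 in PyMT and 44.3% ± 5.08 in FVB samples, a difference of 15.5 points (SE 2.71, adjusted p = 0.000136). The strains overlapped there in early carcinoma, with a PyMT sample at 45.0%. A second intron 1 cluster 36707 bp from the TSS was higher by 6.43 points (adjusted p = 0.00911).

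Zeb1 and Zeb2 encode zinc-finger homeobox repressors that are themselves targets of the miR-200 family of microRNAs. The Zeb1 promoter (79 positions, partly shared with the neighbouring transcript Gm10125) was at 0.698%, 0.902% and 1.30% in PyMT and at 0.201%, 0.355% and 0.899% in FVB samples (lowest, median and highest), a difference of 0.536 points (adjusted p = 9.71e-05). The gene body (chr18:5591860-5775468) was lower, at 77.5% ± 2.52 against 88.2% ± 1.77 (SE of the difference 0.836, adjusted p = 5.65e-09), and all PyMT samples lay below all FVB samples, which held for 19.4% of all gene bodies (4.85% had the opposite order). Of all gene bodies 20% were called higher and 46.4% lower, so a lower gene body was common.

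The loss in Zeb1 was deepest at 3 positions in intron 1, 75794 bp from the TSS (chr18:5668406-5668476). They averaged 66.2% and 82.4% in hyperplasia, 65.8%, 64.2% and 66.0% in adenoma/MIN, 66.1%, 65.3% and 71.5% in early carcinoma and 62.3% and 63.0% in late carcinoma. The FVB samples had 84.8%, 93.5% and 97.7% (lowest, median and highest), above every PyMT sample. The difference was -25.2 points (SE 1.95, adjusted p = 1.8e-08), the largest decrease among the 46 clusters. Coding clusters in exon 6 (-8.19 points, adjusted p = 0.000149) and exon 8 (-3.42 points, adjusted p = 0.0218) were lower too.

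Zeb2 (chr2:44983512-45117442, reverse strand) moved only upward among the clusters that passed the test, 5 of 7. Its promoter was at 0.643%, 1.07% and 1.29% in PyMT and at 0.117%, 0.371% and 0.533% in FVB samples (lowest, median and highest), with no overlap (0.674 points, SE 0.0815, adjusted p = 3.01e-06). The first cluster, in its first exon and intron, was at 1.95% ± 0.591 against 0.507% ± 0.321 (adjusted p = 1.06e-05). The intron 6 cluster shown above, 108357 bp from the nearest TSS, was at 69.0% and 45.8% in hyperplasia, at 60.4%, 53.7% and 55.8% in adenoma/MIN, at 56.7%, 69.4% and 72.9% in early carcinoma and at 73.0% and 73.3% in late carcinoma. The FVB samples had 40.4%, 52.1% and 62.0% (lowest, median and highest). The strains overlapped in the premalignant weeks and did not in weeks 10 and 12. The difference over the 4 weeks was 11.8 points (SE 2.85, adjusted p = 0.00227), and the change from premalignant to malignant samples, 12.8 points, did not pass the test (adjusted p = 0.13).

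**Figure D3:**
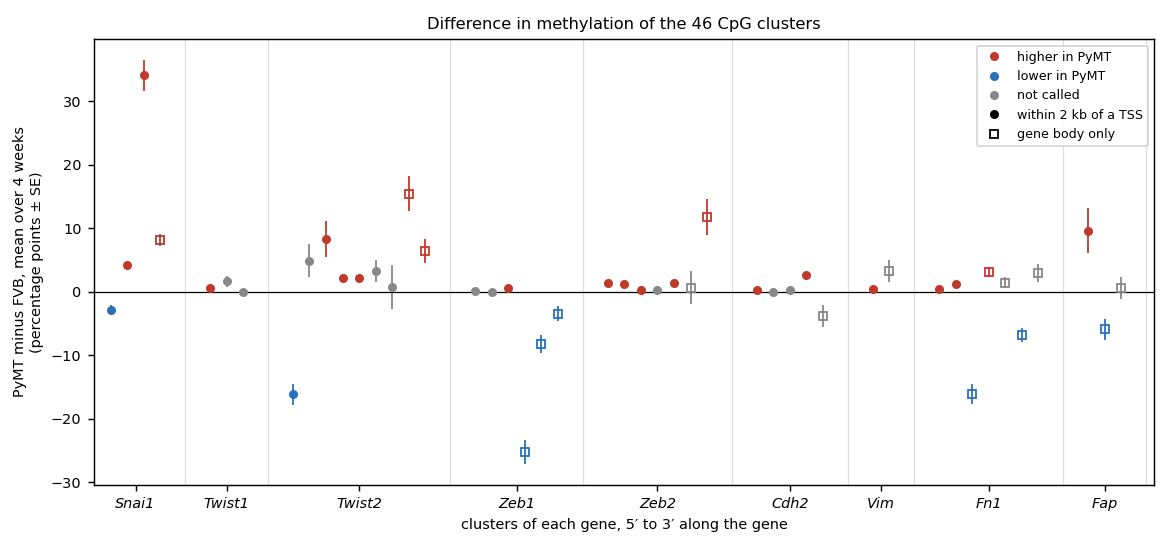
Difference in methylation (PyMT minus FVB, mean over the 4 weeks, in percentage points, with bars for ± 1 SE) of the 46 CpG clusters, ordered 5′ to 3′ within each gene. Red points were called higher in PyMT (22), blue ones lower (8) and grey ones neither (16), with filled circles within 2 kb of a TSS and open squares further inside the gene. The highest point is Snai1 exon 2 (34.1) and the lowest Zeb1 intron 1 (-25.2).

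Of the 4 mesenchymal genes, Cdh2, Vim and Fn1 had nearly unmethylated promoters and Fap a mostly methylated one. Cdh2 (chr18:16588877-16809246) had the most promoter positions, 130, at 0.560%, 0.914% and 1.56% in PyMT and at 0.344%, 0.605% and 0.911% in FVB samples (lowest, median and highest). Its difference of 0.320 points (adjusted p = 0.011) fell below the threshold with a 500 bp window (0.175 points, adjusted p = 0.249). An intron 1 cluster 1475 bp from the TSS was at 4.50% ± 2.02 against 1.73% ± 1.24 (adjusted p = 0.00558), and a coding cluster in exon 12 at 65.0% against 68.9% (-3.86 points, adjusted p = 0.0748). The exon 12 difference passed the test without replicate 1 of hyperplasia (-5.28 points, adjusted p = 0.0149) or replicate 3 of late carcinoma (-5.02 points, adjusted p = 0.0264), and was -2.44 points without replicate 2 of hyperplasia (adjusted p = 0.257). Vim (chr2:13574311-13582826) was at 0.270%, 0.541% and 0.939% in PyMT and at 0%, 0.148% and 0.443% in FVB samples over 24 positions around its TSS, a difference of 0.452 points (adjusted p = 8.25e-05). Its exon 5 cluster was at 58.6% ± 4.71 and 55.7% ± 3.99, a difference of 3.25 points that did not pass the test (adjusted p = 0.151).

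Fn1 (chr1:71585473-71653234, reverse strand) was nearly unmethylated at its start and differed in both directions further inside. Its promoter was at 0.171% and 0.708% in hyperplasia, at 0.951%, 0.910% and 1.20% in adenoma/MIN, at 1.42%, 1.59% and 1.42% in early carcinoma and at 1.03% and 1.41% in late carcinoma, while FVB samples had 0.0660%, 0.205% and 0.440% (lowest, median and highest). Only hyperplasia overlapped its controls. The difference over the 4 weeks was 0.823 points (SE 0.0703, adjusted p = 5.34e-08). The exon 6 cluster shown above was at 78.7% and 74.8% in hyperplasia, at 74.7%, 71.2% and 71.2% in adenoma/MIN, at 73.5%, 73.2% and 75.9% in early carcinoma and at 71.5% and 64.1% in late carcinoma, against 79.6%, 89.4% and 94.5% in FVB samples. All PyMT samples lay below all FVB samples, and the difference was -16.1 points (SE 1.58, adjusted p = 2.62e-07). Nearer to the TSS, 2 single positions outside any cluster, at 2251 and 2153 bp, differed the other way and were hyper-DMCs (a call explained below) at all 4 stages. Their pooled reads were more methylated in PyMT samples by 25.4, 26.4, 29.7 and 37.8 points at 2251 bp and by 21.6, 21.99, 47.3 and 38.7 points at 2153 bp in the order of stages. Within the exon 6 cluster, the 2 neighbouring reverse-strand positions 7600 and 7580 bp from the TSS carried -32.1 and -32.8 points, and the other 4 carried -4.34 to -15.6 points. A cluster at exon 33 was lower (-6.78 points, adjusted p = 8.32e-05) and one at exon 15 higher (3.12 points, adjusted p = 0.00195).

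Fap (chr2:62500936-62574021, reverse strand), a serine protease of activated fibroblasts, was the only one of the 10 with a mostly methylated promoter. Its 8 positions averaged 62.1%, 73.4% and 80.5% in PyMT and 49.6%, 62.3% and 68.0% in FVB samples (lowest, median and highest). The strains overlapped at 2 of the 4 weeks, and the difference was 12.3 points (SE 3.05, adjusted p = 0.00359). The promoter did not pass at any single stage (limma adjusted p = 0.27, 0.105, 0.312 and 0.215 in the order of stages). The 6 of these positions in the cluster at -1378 bp from the TSS were at 78.7% ± 7.61 and 69.2% ± 7.57 (adjusted p = 0.0344), a call that 10 of the 22 fits without 1 sample lost. These 6 positions lay at -1304 to -1452 bp, so the Fap promoter value mostly describes an upstream stretch and not the start itself. In intron 20 a cluster was lower, at 83.4% ± 5.66 against 89.8% ± 4.66 (adjusted p = 0.00667).

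**Figure D4:**
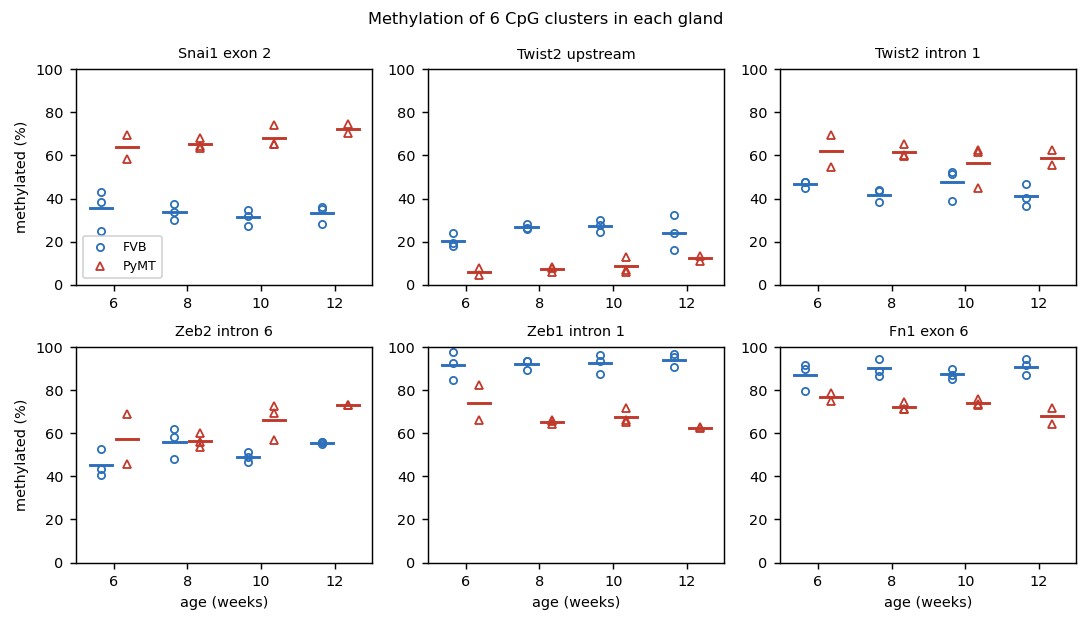
Percent methylated in each sample by age in weeks for 6 CpG clusters, with blue circles for FVB, red triangles for PyMT and bars for the mean of each strain and week. All PyMT samples lie above all FVB samples for Snai1 exon 2 and below them for Twist2 upstream, Zeb1 intron 1 and Fn1 exon 6, while the strains overlap at some weeks for Twist2 intron 1 and Zeb2 intron 6.

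Over all 46 clusters of the 10 genes, 22 were higher and 8 lower in PyMT samples, where 16.6% of all 84563 clusters were called higher and 31.6% lower. All PyMT samples lay above all FVB samples in 5 of the 46 clusters and below them in 3. Of all 84563 clusters, called or not, 3.49% had the first order and 9.25% the second. By stage, 5, 9, 10 and 11 of the 46 clusters were higher in hyperplasia, adenoma/MIN, early and late carcinoma, where 3.84%, 7.58%, 10.2% and 10.4% of all clusters were, and 2, 6, 4 and 5 were lower, where 10.7%, 16.6%, 20.4% and 21.3% of all were. The 3 Snai1 clusters from the TSS to the end of the gene, the upstream Twist2 cluster and the Zeb1 intron 1 cluster passed at every stage. Of the 10 promoters, 2, 4, 7 and 6 were higher at these stages, where 2.82%, 8.75%, 11.6% and 12.5% of all promoters were. None was lower at any stage, where 5.85%, 8.51%, 10.6% and 9.45% of all promoters were. Snai1 and Zeb2 were the only promoters called at hyperplasia, and both were called at every later stage. Within 2 kb of a TSS 17 of 29 clusters were higher and 2 lower, and further inside the genes 5 of 17 were higher and 6 lower. No shares of all clusters by location are given here, so whether this split is particular to the 10 genes was not tested. Among the 46 clusters, more were called higher than lower below 80% in FVB samples, and more lower than higher at 80% or more. The FVB level is itself a term of the difference. A cluster near the lowest possible level can hardly fall, and one near the highest can hardly rise. The split by level therefore cannot decide whether direction depended on it. Of the 23 clusters below 10% in FVB samples 14 were higher and 1 lower, against 17.1% and 6.66% of all clusters at that level. Of the 10 clusters at 80% or more 1 was higher and 6 were lower, against 7.56% and 43.1%. The 13 in between had 7 higher and 1 lower, against 25.1% and 43.0%. In windows of 300 bp around the cluster centres the ratio of observed to expected CpGs had a median of 0.670 for the higher, 0.462 for the lower and 0.682 for the other clusters.

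The same genes were then examined position by position at each stage. A differentially methylated cytosine (DMC) was a position whose pooled reads differed between PyMT and FVB samples of a week by at least 10 points at q below 0.01 (logistic likelihood-ratio test, adjusted over all 1140639 positions). Reads, not mice, are the units of this test, and with an allowance for the spread between mice the hyper-DMCs of the 4 stages numbered 9, 21, 24 and 23 (1.08%, 2.51%, 2.87% and 2.75% of the 835), where 0.883%, 1.22%, 2.39% and 2.53% of all positions were called. Of the 835 positions, 34, 40, 43 and 38 were hyper-DMCs in hyperplasia, adenoma/MIN, early and late carcinoma, which is 4.07%, 4.79%, 5.15% and 4.55%. Of all positions 2.62%, 3.20%, 4.39% and 4.44% were hyper-DMCs at these stages. The Snai1 promoter window, with 85 of the 835 positions, held 13, 20, 18 and 19 of the 34, 40, 43 and 38, so 1 gene weighs heavily in these shares. Hypo-DMCs numbered 16, 27, 23 and 24, or 1.92%, 3.23%, 2.75% and 2.87%, where the shares of all positions were 6.01%, 7.10%, 8.42% and 8.53%. A position near 0% cannot fall by 10 points, and 681 of the 835 lay within 2 kb of a TSS, where most of these genes were nearly unmethylated. Here and below, the shares of all positions were not matched for this. Without replicate 1 of hyperplasia, that stage had 18 hyper-DMCs in place of 34. Without the adenoma/MIN library that stood apart, that stage had 36 hyper-DMCs and 27 hypo-DMCs. Between FVB weeks 12 and 6, 3 of the 835 were hyper-DMCs and 3 hypo-DMCs (0.359% each), against 0.618% and 0.309% of all positions.

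**Figure D5:**
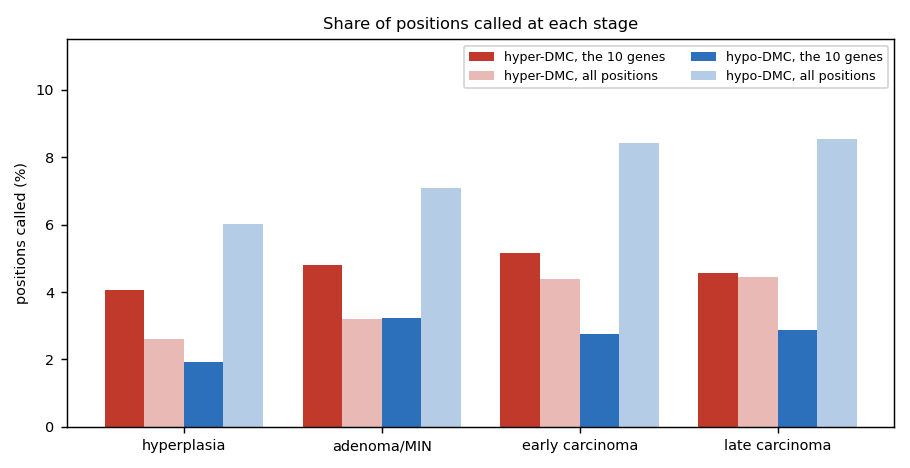
Percent of positions called hyper-DMC (red) or hypo-DMC (blue) at each stage, with dark bars for the 835 positions of the 10 genes and pale bars for all 1140639 positions. The dark blue bars lie at 1.92% to 3.23%, below the pale blue ones at 6.01% to 8.53%, while the red bars of both kinds nearly meet in late carcinoma (4.55% and 4.44%). Dark and pale bars were not matched for the level of methylation.

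The calls were unevenly spread over the genes. Of the 835 positions 723 were called at no stage and 112 (13.4%) at 1 or more, where 20.3% of all positions were, and none was called in opposite directions at different stages. Hyper-DMCs at all 4 stages numbered 17 (2.04%, against 1.05% of all positions), of which 12 lay in the Snai1 promoter window, 2 each in the bodies of Twist2 and Fn1 and 1 in that of Zeb2. Hypo-DMCs at all 4 stages numbered 7 (0.838%, against 3.27% of all positions), of which 3 were in the Twist2 promoter window and 2 each in the bodies of Zeb1 and Fn1. Within 2 kb of a TSS, Snai2, Twist1, Zeb1, Vim and Fn1 had no call at any stage.

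The study was designed around the malignant transition, so premalignant and malignant PyMT samples were also compared. Of the 46 clusters 2 were higher in the malignant samples and none lower (limma, with 4 and 2 at an unadjusted p under 0.05), where 2.02% and 1.23% of all clusters were called. They were the Twist2 cluster over the TSS (1.67 points, adjusted p = 0.00578) and the first-exon cluster of Fn1, 290 bp from its TSS (1.16 points, adjusted p = 0.0076), which was named after its values were seen. Both stayed below 6% in every sample. The Fn1 promoter was the only one of the 10 to pass this test (0.616 points, adjusted p = 0.00121), against 5.67% of all promoters called higher and 0.366% lower. The change from premalignant to malignant weeks differed between the strains for 1 cluster (Twist2 at the TSS) and 1 promoter (Fn1), where 0.577% of all clusters and 2.41% of all promoters rose more in PyMT samples and 0.271% and 0.122% less. Between the same weeks of FVB samples limma called 0 of the 46 clusters and 0 of the 10 promoters, with 2 clusters and 0 promoters at an unadjusted p under 0.05. It also called 0 of all 84563 clusters and 0 of all 16407 promoters, so the lack of calls was not particular to the 10 genes.

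Genes around the EMT program were described from lists chosen with earlier results of these data known. For these and the lists below, 17.0% of all promoters were called higher and 17.0% lower. Of 10 other EMT transcription factors 1 promoter was higher and 2 were lower, with a median difference of -0.0270 points. Foxc2, a forkhead factor, was at 4.01% ± 1.496 in PyMT and 2.68% ± 0.217 in FVB samples (adjusted p = 3.62e-05), and Gsc, a homeobox factor, at 4.44% and 5.31% (adjusted p = 0.0361). Klf8, on the X chromosome, was at 26.0% and 25.5% (adjusted p = 0.841), with the adenoma/MIN library that stood apart at 1.75%. Of 10 genes of the TGF-beta pathway, which induces these factors, 1 was lower, Tgfb3 (2.15% ± 1.47 against 4.91% ± 0.885, adjusted p = 0.000263), and none was higher. Next by size were Smad4 (-0.0953 points, adjusted p = 0.167) and Tgfbr3 (-0.0729 points, adjusted p = 0.199).

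Further genes of mesenchymal and of epithelial cells were described in the same way. Of 15 further mesenchymal and fibroblast genes 9 were measured, 4 were higher, none was lower and 5 did not pass the test, with a median of 1.27 points. Tagln, which encodes the smooth muscle protein transgelin, was at 47.6% ± 7.01 against 17.4% ± 2.89 (30.2 points, adjusted p = 3.35e-10). Mmp2, a matrix metalloproteinase, differed by 6.57 points (adjusted p = 1.26e-07) and Col1a1, a collagen chain, by 3.08 points (adjusted p = 0.0189). The Col1a1 value rested on 4 positions. Of 14 epithelial genes 11 were lower and none higher, with a median of -1.77 points. The tight junction gene Cldn4 was at 12.8% ± 3.23 against 41.8% ± 4.21 (-28.9 points, adjusted p = 1.74e-10), the keratin gene Krt18 at 15.5% against 31.4% (adjusted p = 2.03e-11) and Cldn7 at 1.27% against 4.04% (adjusted p = 4.59e-08).

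The miR-200 family, which represses Zeb1 and Zeb2, was measured at 1 of its loci. The precursors of miR-200c and miR-141 lie side by side on chromosome 6 and share all 21 measured positions (124717262 to 124719469), which makes them 1 observation. Their mature products, from RefSeq with the seed (bases 2 to 8) in capitals, are shown because the locus had the largest difference of any list.
miR-200c-3p: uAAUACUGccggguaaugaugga
miR-141-3p: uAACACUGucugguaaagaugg
The locus was at 15.4% ± 4.34 in PyMT (9.12% to 24.5%) and 51.3% ± 7.002 in FVB samples (38.9% to 59.1%). The strains did not overlap, and the difference was -36.0 points (SE 2.29, adjusted p = 1.84e-09).

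Markers of the cell types a mammary gland holds differed as well. The promoters of all 6 luminal epithelial markers were lower in PyMT samples, among them Elf5 (9.45% against 36.5%, adjusted p = 1.96e-09) and Krt18. Of 5 basal and myoepithelial markers only Krt5 was measured, and it was lower (-8.96 points, adjusted p = 0.000443). Of 7 adipocyte markers 5 were measured, 2 higher and 2 lower, among them Cidec (48.8% against 70.4%, adjusted p = 1.73e-06), Lep (-14.3 points, adjusted p = 5.48e-06) and Lipe (2.06 points, adjusted p = 0.0331). Of 6 endothelial markers 4 were measured, 1 higher (Pecam1, 16.3 points, adjusted p = 1.71e-06) and 2 lower, among them Cdh5 (-16.0 points, adjusted p = 5.79e-05), while Erg had 0.931 points (adjusted p = 0.242). Pecam1 and Cdh5 rested on 3 positions each and Cidec on 4, so most of these promoters was not measured. The luminal and epithelial lists share Krt8, Krt18, Epcam, Cdh1 and Cldn7, so the luminal result largely repeats the epithelial one. The part of the cell mix in the differences of the 10 genes was not tested.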

How the data were processed

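ERRBS libraries of 22 samples were analysed. Per the labels and the study's methods, reads were aligned by the authors with Bismark to mm10. The deposited tables give, for each cytosine of a CpG on each strand, the count of reads covering it (at least 10) and the percent of reads methylated and unmethylated, with no normalization. Methylated and unmethylated reads were recovered as coverage times percent, rounded. Depth was 60.2 to 79.2 reads per position and limits the precision of each value. Samples were separate mice, and same-group samples differed by more than sampling noise (mean chi-square 1.83 to 3.51 per position over 20 pairs).

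Positions covered in all 22 samples (70.2% of 1625271) were used. RefSeq curated transcripts (45756 of 26180 genes, GRCm38.p6) defined promoters (2 kb on each side of a TSS), gene bodies outside them, and clusters (gaps of at most 100 bp, at least 3 positions). Mean percent per feature was fitted with limma 3.58.1 in R over 8 strain-by-week groups (empirical Bayes with trend, Benjamini-Hochberg adjustment over all features), and contrasts gave PyMT minus FVB over the 4 weeks, malignant minus premalignant and their interaction. SEs are those of limma. An exact two-sided permutation of strain within week was run for promoters. DMCs were called per stage in Python 3.11.15. The steps were tested on simulated data. Alternatives changed coverage, strand merging, scale, windows, spread and size limits, and left out each sample.

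The text names all 10 genes, the 2 clusters of each with the largest difference, clusters with an interaction, and 3 genes per list; other clusters were named after their values were seen. The members and lists were chosen with earlier results of these data known. The result of 1 marker list is not reported here.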

Additional observations from a re-analysis of the deposited data

Results flagged for a closer look

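The change from premalignant to malignant weeks differed between the strains for 2 results, with weeks 6 and 8 set against weeks 10 and 12. In the Twist2 cluster over the TSS, PyMT samples rose by 1.67 points and FVB samples changed by -0.161 points, so the changes differed by 1.83 points (limma interaction, SE 0.411, adjusted p = 0.0471). In the Fn1 promoter, PyMT samples rose by 0.616 points and FVB samples changed by 0.0219 points, a difference of 0.594 points (SE 0.141, adjusted p = 0.0302). The background was 0.577% of all clusters and 2.41% of all promoters with a higher change in PyMT. Neither call held in every alternative: of the 22 fits without 1 sample, 19 lost the Twist2 call and 12 the Fn1 call. Both stretches were below 6% methylated in every sample.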

How the results depend on the processing

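Counts for the 10 genes moved most with the size limit. At a difference of at least 25 points, hyper-DMCs in hyperplasia, adenoma/MIN, early and late carcinoma numbered 9, 21, 23 and 22 (0.854%, 1.05%, 1.55% and 1.82% of all positions) and hypo-DMCs 5, 10, 8 and 12 (2.81%, 3.12%, 4.05% and 4.57% of all). With overdispersion allowed for, they numbered 9, 21, 24 and 23 (0.883%, 1.22%, 2.39% and 2.53% of all) and 7, 12, 15 and 15 (2.52%, 3.06%, 5.22% and 5.14% of all). With a mean difference of at least 5 points required, 2 promoters and 7 clusters were higher, 1 gene body was lower, and 0 clusters differed between malignant and premalignant samples or in the interaction. At a coverage minimum of 20 reads 1 gene body was lower, and the Fap gene body difference reversed from -2.07 to 0.578 points, neither of which passed the test. On a log2 ratio scale 0 clusters were higher in malignant samples. The interaction count was 0 on that scale, with the replicate block, without the variance trend and with gaps of 50 bp. The cause of these moves was not tested.

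With each sample left out in turn, hyper-DMCs ranged over 18 to 36, 33 to 44, 33 to 42 and 32 to 37 in the order of stages, and hypo-DMCs over 11 to 16, 19 to 27, 18 to 23 and 17 to 25. Promoters called higher ranged over 8 to 9 and lower stayed at 0, gene bodies higher over 3 to 4 and lower over 2 to 3, and clusters higher over 19 to 23 and lower over 7 to 9. Clusters higher in malignant samples ranged over 2 to 3, those lower over 0 to 1, and the interaction over 0 to 1. The 1 lower cluster appeared without replicate 1 of PyMT hyperplasia or without replicate 1 of adenoma/MIN. The Snai2 promoter difference reversed to -0.0848 points without replicate 1 of late carcinoma (range -0.0848 to 0.478). The Twist1 promoter call was lost in 14 of these 22 fits.

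Same-numbered samples did not deviate together (correlations of -0.0757 to 0.0602 over 10 pairs, 0 over 0.1), so the numbers were not taken to pair the mice. With the replicate block, 8 promoters and 22 clusters were higher, and the Twist1 promoter (adjusted p = 0.0564) and both interactions (Twist2 0.0711, Fn1 0.0516) lost their calls. Depth of 60.2 to 79.2 reads limits single positions more than clusters.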
